A study of Capra hircus with 6 samples.

Results

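Homeobox genes outside the set that makes pinealocytes were followed in the pineal gland of goats (Capra hircus) across the onset of puberty. They were chosen by name from a list of 55 homeobox genes, of which 52 had a row in the deposited tables of 28244 genes. LHX2, POU6F1 and HOPX matched no gene name there and were not analysed here. Of the 52 genes, 51 had at least 1 count, and 42 passed the count filter and were among the 16588 genes tested. The libraries form 2 groups of 3: untreated female goats before puberty, and untreated female goats at puberty, which had an inflamed vulva and some mature follicles in the ovary. Breed, age and time of day of collection are not given in the sources used here, and whether the libraries stand for separate animals is also not stated. The tissue field of the labels holds the sex, and the gland is named in the series description.

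Homeobox genes encode transcription factors that bind DNA through a homeodomain, a fold of 3 helices whose last helix contacts the bases. They are grouped into classes by the rest of the protein: the PRD class, the TALE class with its extra loop between helices, the CUT, POU, LIM and SINE classes with a further conserved domain, the ANTP class, and a class that also carries zinc fingers. In the developing brain they divide tissue into regions and fix cell types, and many stay active in adult neurons and glia. The pineal gland, which secretes melatonin at night, arises from the roof of the diencephalon and is known for the homeobox genes CRX, OTX2, LHX9 and PAX6. The genes described here have wider or other roles, among them cofactors of other homeodomain proteins, repressors and patterning genes.

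Library totals ran from 18864451 to 20971065 counts. The pinealocyte markers were high in every library, with 2087 to 3199 CPM (counts per 1000000 of the TMM-scaled total) for TPH1, the first enzyme of melatonin synthesis, and 724 to 1306 CPM for ASMT, the last. In puberty replicate 2 the 8 choroid plexus markers with a row summed to 10318 CPM, of which TTR held 10082. The same sum was 165 to 445 CPM in the prepuberty libraries and 310 and 568 CPM in the other puberty libraries. TTR, KCNJ13, KL, SLC5A5, PRLR and F5 were highest in puberty replicate 2. SLC4A5 was lowest there, with 21.1 CPM against 25.0 to 47.6 CPM elsewhere. TRPM3 had 42.7 CPM there, below the 50.1 to 53.5 CPM of the prepuberty libraries. Astrocyte markers, 9 of 10 with a row, summed to 4340 to 5964 CPM in prepuberty and 6452 to 6635 CPM in puberty. Of these 9, 3 rose (33.3%), against 5.85% of all tested genes. In prepuberty replicate 2, GAD1 and GAD2, the enzymes that make GABA, were at 35.3 and 39.2 CPM against at most 4.81 and 5.75 CPM elsewhere. Values without each of these libraries are given beside the results that rest on them. In a whole gland, fewer cells of a type and less RNA per cell cannot be told apart.

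Levels, compared between genes only per length as the deposited FPKM (fragments per kilobase of gene and depth of library), ran from 0 to 47.9 FPKM. ADNP, a chromatin-bound homeobox and zinc finger protein of neural development, was highest with a mean of 42.6 FPKM over the 6 libraries (38.3 to 47.3). MSX1, a repressor of the ANTP class that patterns the roof of the neural tube, followed at 39.1 FPKM (32.9 to 47.9). SATB1, a CUT class organiser of chromatin loops, had 30.3 FPKM. ADNP and MSX1 overlapped in their ranges, whereas SATB1 reached at most 35.0 FPKM and did not reach the lowest value of ADNP. Levels between 10 and 20 FPKM were found for ZHX1 (18.6), ZEB1 (17.1), ZHX3 (16.2), POU3F3 (15.4), CUX1 (13.3), PKNOX2 (11.5), PKNOX1 (11.01) and PBX2 (10.7). Their ranges over the libraries overlapped from neighbour to neighbour. ADNP exceeded 82.6% of the tested genes in mean FPKM and MSX1 81.2%, while SHOX2, at 6.45 FPKM, exceeded 37.9%. For comparison, CRX was at 969 FPKM, ISL2 at 345 FPKM and OTX2 at 155 FPKM. All 52 genes were below these levels.

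**Figure D1:**
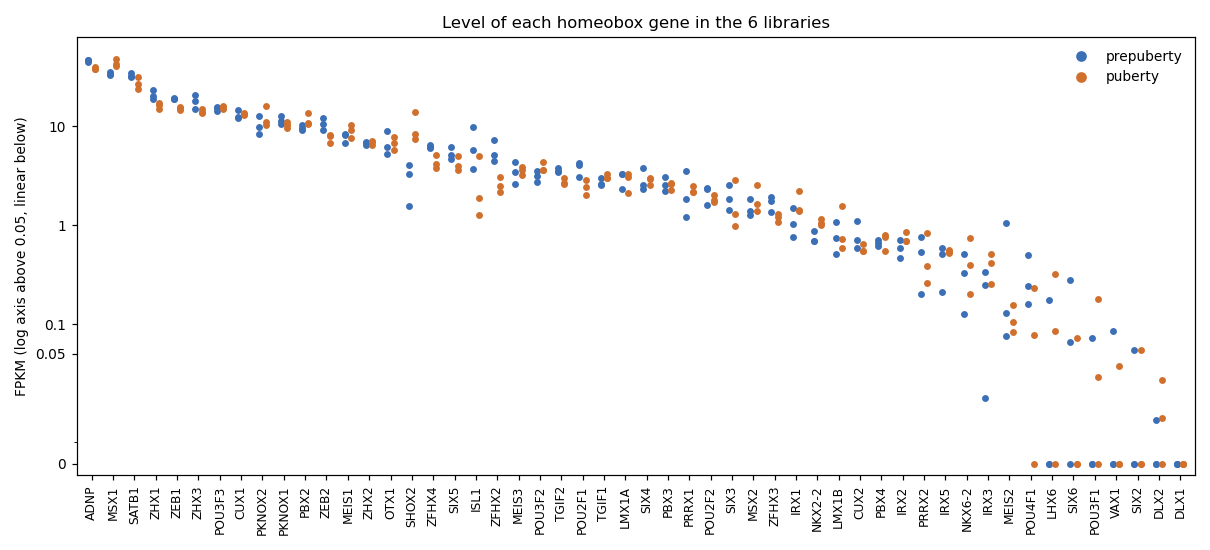
Deposited FPKM of the 52 homeobox genes in each of the 6 libraries, ordered by mean level, with prepuberty in blue and puberty in orange (1 point per library; log axis above 0.05 FPKM, linear below). ADNP at 42.6 FPKM and MSX1 at 39.1 FPKM lead the order, SHOX2 and ISL1 spread widely between libraries, and DLX1 is at 0 throughout.

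Between the stages, SHOX2 and MSX1 rose, and 4 genes of the zinc finger class fell: ZFHX2, ZFHX4, ZEB1 and ZEB2. Calls were made with edgeR's quasi-likelihood test at a Benjamini-Hochberg adjusted p under 0.05 over all genes tested. These 6 of 42 genes are 14.3%, where 11.5% of all tested genes were called. By direction, 2 of 42 rose against 5.85% of all tested genes, and 4 of 42 fell against 5.64%. At an unadjusted p under 0.05 there were 12 of the 42, or 28.6%, against 29% of all tested genes. The median log2 fold change of puberty over prepuberty (log2FC) was -0.02 for the 42 and 0.01 for all tested genes. These homeobox genes were thus called about as often as other genes. A fold change above 0 was found for 20 of them, or 47.6%, against 50.6% of all tested genes, and one below 0 for 22, or 52.4%, against 49.4%. In 17 of them, or 40.5%, the 3 puberty values did not overlap the 3 prepuberty values, against 34.8% of all tested genes. Of the 42, 11 were lower without overlap, or 26.2%, against 17.6% of all tested genes, and 6 were higher, or 14.3%, against 17.2%. An absolute log2FC of at least 1 was found for SHOX2, ZFHX2, ISL1 and MEIS2, and for 3.54% of all tested genes.

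SHOX2 is a PRD class gene, a relative of the short stature gene SHOX, known in mice for the sinoatrial node of the heart, the limb and groups of neurons in the thalamus and spinal cord. Identifier ENSCHIG00000016128 places it on chromosome 1 from 108977855 to 108988530 on the plus strand, in the coordinates of the authors' table, which names no build. Prepuberty replicates 1 to 3 held 209, 273 and 100 counts of it, and puberty replicates 1 to 3 held 926, 460 and 549. In CPM these were 10.7, 13.4 and 5.19 before puberty and 45.4, 24.6 and 27.2 at puberty. The lowest puberty value was thus well above the highest prepuberty value, with puberty replicate 1 the highest and prepuberty replicate 3 the lowest. SHOX2 rose 3.31-fold, from 9.77 ± 4.2 to 32.4 ± 11 CPM (SD, n = 3 each; 95% interval of the fold 1.73 to 6.36). The log2FC was 1.73 with an SE of 0.39, and the adjusted p from edgeR was 0.041. By log2FC it stood 17th among the 971 genes called higher. The call was near its threshold: without any 1 of the 6 libraries the adjusted p lay between 0.052 and 0.108, with log2FC values from 1.41 without puberty replicate 1 to 2.03 without prepuberty replicate 2. DESeq2 gave an adjusted p of 7.95e-06 and limma-voom 0.039.

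Markers of regions next to the gland were set beside SHOX2. All 11 thalamus markers had counts, and their summed level was 824 to 841 CPM in prepuberty and 664 to 787 CPM in puberty. None of them was called higher by edgeR, and RORA, a nuclear receptor also of the clock, fell (log2FC -0.46). The 11 habenula markers with a row summed to 111 to 123 CPM in prepuberty and 86.7 to 101 CPM in puberty, and KCNIP1, a potassium channel subunit, fell (log2FC -0.45). Single genes held much of these sums, SLC17A6 511 to 656 CPM of the thalamus sum and KCNIP1 45.2 to 67.8 CPM of the habenula sum, and the members of each list went both ways. Of the 11 thalamus markers 4 had a log2FC above 0, as had 3 of the 8 habenula markers tested. GBX2, a defining gene of the thalamus and itself a homeobox gene, had 0.514, 0.981 and 0.727 CPM in prepuberty and 1.52, 1.71 and 1.54 CPM in puberty (log2FC 1.09, adjusted p = 0.087). The part of these regions in the SHOX2 value was not tested. IRX2 and POU4F1, both described here, are among the habenula markers. POU4F1, the defining factor of the habenula, had 0 to 13 counts per library. Puberty replicate 2, in which the choroid plexus marker sum was high, had the lowest SHOX2 of the 3 puberty libraries. The astrocyte sum was higher at puberty, as SHOX2 was, with most of it held by GFAP and ALDOC. Of the 9 astrocyte markers 6 had a log2FC above 0 and 3 below (AQP4, GJA1 and SLC1A2), and their part in the SHOX2 value was not tested.

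The genes around SHOX2 were read from the same table. The nearest, a protein-coding gene without a symbol (ENSCHIG00000011968), lies on the minus strand, so that its start is 17.1 kb from the start of SHOX2. It had 46.4, 52.6 and 50.003 CPM in prepuberty and 73.7, 69.5 and 65.9 CPM in puberty, so its groups did not overlap either. It rose by a log2FC of 0.49 (SE 0.09, adjusted p = 0.016), less than SHOX2 did. The other tested genes within 1000 kb were MFSD1, RARRES1, GFM1, LXN, MLF1, VEPH1 and PTX3, none of which passed edgeR's test (adjusted p from 0.52 to 0.93).

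Of 15 genes tied to SHOX2 in studies of mouse heart and limb, 11 were tested, 1 rose and 0 fell (9.09%, against 11.5% of all tested genes), with a median log2FC of 0.05. ISL1, described below with its class, is among them. CACNA1G, which encodes a T-type calcium channel, had 43.5, 52.4 and 29.6 CPM in prepuberty and 91.2, 65.6 and 84.4 CPM in puberty. It rose 1.92-fold (log2FC 0.94, SE 0.21, adjusted p = 0.036), also with offsets for gene length (adjusted p = 0.039).

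**Figure D2:**
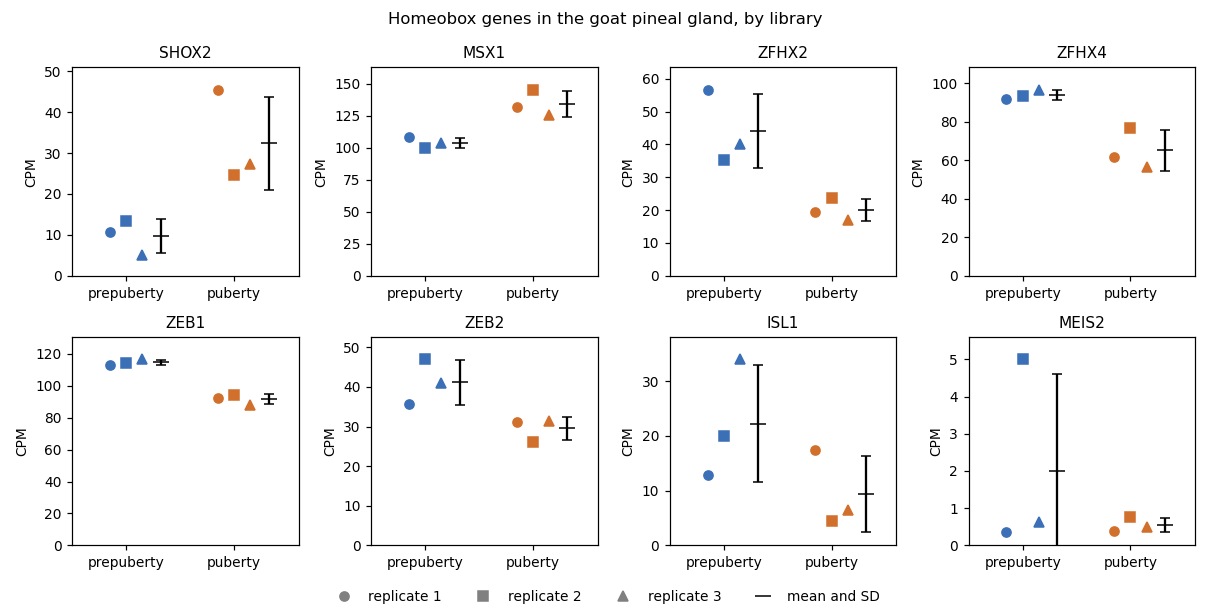
CPM of 8 homeobox genes in each library (circle, square and triangle for replicates 1, 2 and 3 of each group), with the group mean and SD in black and axes that start at 0. SHOX2 lies between 5.19 and 13.4 CPM before puberty and between 24.6 and 45.4 CPM at puberty, while ISL1 overlaps between groups and MEIS2 is high only in prepuberty replicate 2 (its SD bar runs below the axis).

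The other gene that rose, MSX1, is the ANTP class gene on chromosome 6 (104581798 to 104587225). It had 108, 100.02 and 103 CPM in prepuberty and 131, 145 and 125 CPM in puberty, with little spread in either group. MSX1 rose 1.29-fold, from 104 ± 4.0 to 134 ± 10 CPM (SD, n = 3 each), a log2FC of 0.37 with an SE of 0.09 and an adjusted p of 0.032. With length offsets the log2FC was 0.43 (adjusted p = 0.033), and in fits without 1 library it was 0.31 to 0.41, with a call in 1 of the 6 (adjusted p from 0.042 to 0.084). Its paralog MSX2 was much lower, at 1.69 FPKM, with a log2FC of 0.31 (95% interval -0.28 to 0.91, adjusted p = 0.47). MSX2 was highest in puberty replicate 2, with 10.6 CPM against 5.29 to 7.63 CPM elsewhere. Without that library its log2FC was 0.03. NKX2-2, a factor of oligodendrocyte precursors, had 1.66 to 2.11 CPM in prepuberty and 2.41 to 2.80 CPM in puberty. Its groups did not overlap, but its log2FC of 0.51 did not pass (SE 0.28, adjusted p = 0.26). Oligodendrocyte markers, 11 of 12 with a row and counts, summed to 312 to 443 CPM in prepuberty and 310 to 325 CPM in puberty.

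The zinc finger class was the only class in which more than 1 gene was called: 4 of 9 fell and 0 rose, where 5.64% of all tested genes fell. Among all tested genes over 7000 nt, a length that 3 of the 9 exceed, 21.9% fell, and with offsets for length 1 of the 4 calls was left. Its summed level was 742, 756 and 744 CPM in the prepuberty libraries and 582, 585 and 571 CPM in the puberty libraries. In 8 of its 9 genes all 3 puberty values lay below all 3 prepuberty values, a separation found in 17.6% of all tested genes, and the class had a median log2FC of -0.36. The exception was ZHX2, with a log2FC of 0.01 (95% interval -0.25 to 0.27). For ZHX3 the separation was very narrow, with 66.62 CPM in prepuberty replicate 3 and 66.53 CPM in puberty replicate 3.

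ZFHX2, a very large protein with many zinc fingers and several homeodomains that is linked to pain sensing in mice and humans, lies on chromosome 10 (80017737 to 80030604). It had 56.6, 35.3 and 40.1 CPM in prepuberty and 19.6, 23.7 and 16.9 CPM in puberty. The values of the groups were far apart, with prepuberty replicate 1 the highest. ZFHX2 fell 2.19-fold, from 44.0 ± 11 to 20.1 ± 3.4 CPM (SD, n = 3 each), a log2FC of -1.13 with an SE of 0.20 and an adjusted p of 0.016. It was called in 5 of the 6 fits without 1 library and missed only without prepuberty replicate 1 (log2FC -0.90, adjusted p = 0.061). In that fit edgeR called 0 genes of all tested, with 3924 at an unadjusted p under 0.05.

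ZFHX4, a relative of similar build on chromosome 14 (42038131 to 42249540), had 91.7, 93.4 and 96.7 CPM in prepuberty and 61.9, 77.0 and 56.7 CPM in puberty. It fell 1.44-fold (log2FC -0.53, SE 0.12, adjusted p = 0.026). ZFHX3, which acts in the suprachiasmatic clock of mice, had 24.4, 22.0 and 17.1 CPM in prepuberty and 13.4, 15.1 and 16.3 CPM in puberty. Its groups did not overlap, yet its log2FC of -0.50 did not pass (SE 0.16, adjusted p = 0.072). All 3 ZFHX genes thus had lower means at puberty, 2 of them called. In fits without 1 library ZFHX4 was called in 1 of 6, the one without puberty replicate 2 (adjusted p from 0.043 to 0.085).

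ZEB1 and ZEB2 encode repressors that bind E-boxes and are known for epithelial to mesenchymal transition and for neural crest and glial development. ZEB1, on chromosome 13 (33122976 to 33323788), had 113, 114 and 117 CPM in prepuberty and 92.4, 94.3 and 88.0 CPM in puberty. The difference was small and the replicates were tight: ZEB1 fell 1.25-fold, from 115 ± 1.8 to 91.6 ± 3.2 CPM (SD, n = 3 each), a log2FC of -0.32 with an SE of 0.08 and an adjusted p of 0.032. ZEB2, on chromosome 2 (84039808 to 84171164), had 35.7, 47.0 and 41.0 CPM in prepuberty and 31.1, 26.2 and 31.4 CPM in puberty. It fell 1.39-fold (log2FC -0.48, SE 0.13, adjusted p = 0.045), and limma-voom gave an adjusted p of 0.051. ZEB2 is also a gene of microglia, whose 10 markers summed to 137 to 186 CPM in prepuberty and 169 to 302 CPM in puberty, and all 10 had a log2FC above 0 (median 0.65, 1 called). Their part in the ZEB2 value was not tested. ZEB1 overlaps a long noncoding RNA gene on the other strand, with a mean count of 20.7 against 2032.5 for ZEB1. Neither ZEB1 nor ZEB2 was called in any of the 6 fits without 1 library, where the adjusted p was 0.064 to 0.098 for ZEB1 and 0.068 to 0.128 for ZEB2.

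The other zinc finger genes with lower means were ZHX1, ZHX3 and ADNP. ADNP had 274, 282 and 287 CPM in prepuberty and 240, 233 and 232 CPM in puberty, a log2FC of -0.26 (SE 0.08, adjusted p = 0.064). ZHX1 had a log2FC of -0.36 (adjusted p = 0.059) and ZHX3 of -0.34 (adjusted p = 0.10). These did not pass with edgeR, whereas DESeq2 called ADNP, ZHX1 and ZFHX3 lower (adjusted p = 0.014, 0.035 and 0.045). Over all tested genes DESeq2 called 16.8% and edgeR 11.5%. ZHX1 and ZHX2, repressors that partner with the factor NF-Y, lie 237 kb apart on chromosome 14. ZHX2 had 16.4 to 17.8 CPM before and 16.3 to 18.1 CPM at puberty, and the difference between the pair was not tested.

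**Figure D3:**
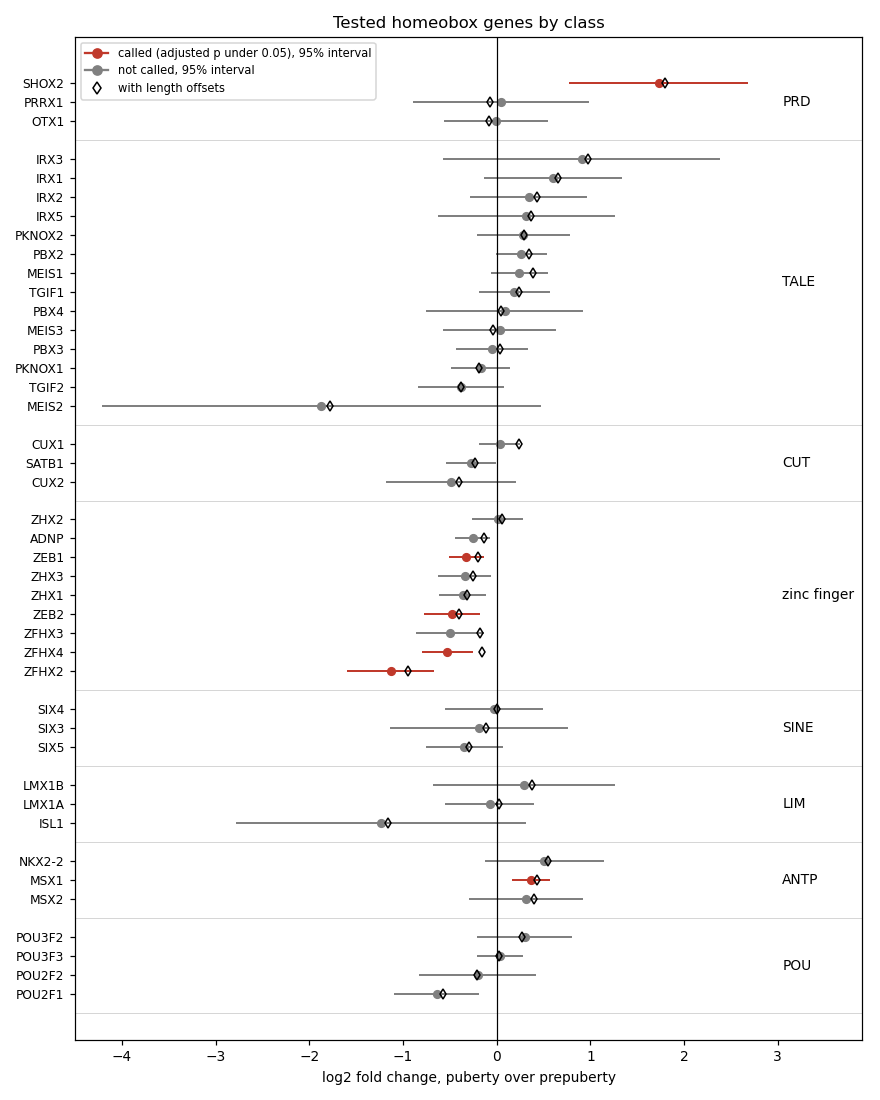
Log2 fold change of puberty over prepuberty for the 42 tested homeobox genes, by class, with 95% intervals (red for genes called at an adjusted p under 0.05, grey for the rest) and, as open diamonds, the fold change with length offsets. SHOX2 stands at 1.73 and ZFHX2 at -1.13, and 8 of the 9 zinc finger genes lie below 0.

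Longer genes as a whole were lower at puberty. The homeobox genes were long, with a median listed length of 3237 nt against 1903 nt for all tested genes. Across genes, which are not independent replicates, length and log2FC had a Spearman's rho of -0.28 over all tested genes and -0.26 over the 42. Over 7000 nt, 21.9% of 837 tested genes fell and 0.956% rose, with a median log2FC of -0.24. The list holds 4 genes of that length: ZFHX2 (7765 nt) and ZFHX4 (14959 nt), which fell, ZFHX3 (12495 nt), and CUX1 (8520 nt), whose log2FC was 0.03.

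Offsets that removed the trend of each library with length left 2 of the 42 genes called, ZFHX2 and MSX1, or 4.76%, against 5.61% of all tested genes. The log2FC of ZFHX2 became -0.95 (adjusted p = 0.036). ZFHX4 moved from -0.53 to -0.15 (adjusted p = 0.48), and ZFHX3 from -0.50 to -0.18, in each case by more than 1 SE. ZEB1 moved from -0.32 to -0.20 (adjusted p = 0.14) and ADNP from -0.26 to -0.13, also by more than 1 SE each. ZEB2 moved from -0.48 to -0.40 and lost its call (adjusted p = 0.093), and SHOX2 had 1.796 (adjusted p = 0.054). The median of the zinc finger class went from -0.36 to -0.20, and its 8 genes below 0 kept their sign.

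**Figure D4:**
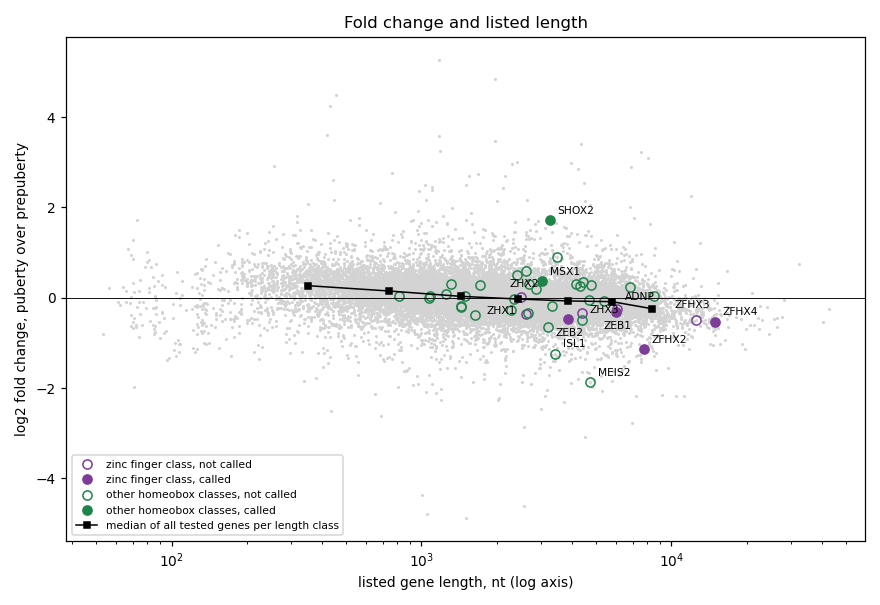
Log2 fold change of puberty over prepuberty against listed gene length (log axis) for all 16588 tested genes in grey, with the homeobox genes in purple for the zinc finger class and green for the other classes, filled where called. The black line, the median per length class, runs from 0.27 below 500 nt to -0.24 over 7000 nt, and ZFHX2 at -1.13 lies well below it while ZFHX4 lies nearer to it.

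The TALE class, which supplies DNA-binding cofactors to other homeodomain proteins, had 14 genes tested and 0 called by edgeR (11.5% of all tested genes were called). At an unadjusted p under 0.05 there were 0 of the 14, against 29% of all tested genes, and DESeq2 also called 0. MEIS1 had 46.4 to 56.9 CPM in prepuberty and 52.7 to 71.3 CPM in puberty, with overlapping groups (log2FC 0.24, adjusted p = 0.26). PBX2 had 39.9 to 44.7 CPM in prepuberty and 46.1 to 59.2 CPM in puberty. Its groups did not overlap, but the log2FC of 0.26 did not pass (95% interval -0.00 to 0.53, adjusted p = 0.17). The repressors TGIF1 and TGIF2 also had groups that did not overlap, with log2FC values of 0.19 and -0.38 (adjusted p = 0.48 and 0.24). PBX2 overlaps GPSM3 and AGER on its own strand, which had mean counts of 73.7 and 23 against 915.5 for PBX2. MEIS3, PBX3, PBX4, PKNOX1 and PKNOX2 had log2FC values from -0.17 to 0.28 (adjusted p of 0.42 or more).

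The Iroquois genes of the same class lie in 2 clusters, IRX1 and IRX2 on chromosome 20 with 714 kb between them, and IRX3 and IRX5 on chromosome 18 with 610 kb between them. All 4 had log2FC values above 0: 0.60 for IRX1, 0.34 for IRX2, 0.91 for IRX3 and 0.31 for IRX5. None passed edgeR's test (adjusted p from 0.25 to 0.66), and all were low, at 1.39 FPKM or less. The counts of IRX3 were 17, 24 and 2 before puberty and 18, 33 and 29 at puberty, and its log2FC was 0.42 without prepuberty replicate 3, the lowest library. IRX5 had a log2FC of -0.00 without that library.

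MEIS2, a TALE gene of GABAergic neurons in the mouse forebrain, lies on chromosome 10 (70268237 to 70491734), and the prepuberty libraries held 7, 102 and 12 counts of it against 8, 14 and 10 in the puberty libraries. In CPM the high library, prepuberty replicate 2, had 5.003 and the other 5 libraries 0.36 to 0.75. Its log2FC of -1.87 (SE 0.99, adjusted p = 0.26) did not pass, and without prepuberty replicate 2 it was 0.16 (adjusted p = 0.89). MEIS2 was 1 of 9 tested genes with this pattern, defined after the values were seen as at least 1 CPM in that library and 4 times every other library, with 0.1 CPM added to both. Among them were GAD1 and GAD2, with 35.3 and 39.2 CPM there, and PROM1, a membrane protein of progenitors and photoreceptors, with 254 CPM against 10.5 to 18.95 CPM in the other libraries. ECEL1, a peptidase of neurons, was at 6.43 CPM there against 0.26 to 1.03 CPM elsewhere. The 10 neuron markers, GAD1 and GAD2 included, summed to 4969 CPM in this library and to 4282 to 5473 CPM in the others. SLC17A7 (2250 to 3240 CPM) and SNAP25 (816 to 904 CPM) held most of that sum, which therefore says little about its low markers. SLC32A1, also among the 10, had 6.13 CPM in prepuberty replicate 2 against 0.62 to 1.54 CPM elsewhere, though it was not among the 9 genes. Other cells in that sample as a part of the MEIS2 value were not tested.

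**Figure D5:**
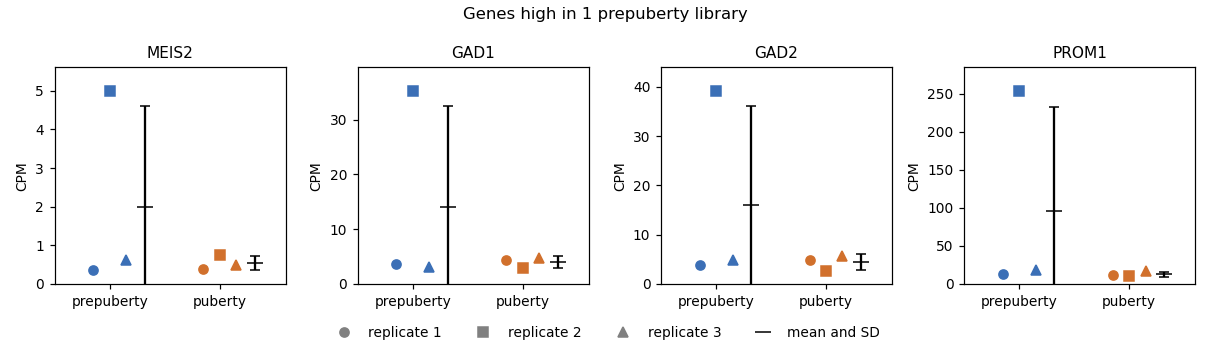
CPM of MEIS2, GAD1, GAD2 and PROM1 in each library (circle, square and triangle for replicates 1, 2 and 3), with the group mean and SD in black; SD bars that run below 0 end at the axis. All 4 genes are high in prepuberty replicate 2 alone, where MEIS2 has 5.003 CPM and PROM1 254 CPM.

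In the LIM class, ISL1 varied widely within both groups. It marks motor, sensory and endocrine cell lineages and is a relative of ISL2, a pinealocyte gene. Its CPM values were 12.8, 19.96 and 34.0 in prepuberty and 17.4, 4.39 and 6.54 in puberty. Puberty replicate 1 lay among the prepuberty libraries, and the other puberty libraries lay below all of them. The means were 22.3 ± 11 and 9.44 ± 7.0 CPM (SD, n = 3 each), and the log2FC of -1.23 did not pass (95% interval -2.77 to 0.30, adjusted p = 0.25). In fits without 1 library it ran from -2.02 without puberty replicate 1 (adjusted p = 0.065) to -0.79 without prepuberty replicate 3 (adjusted p = 0.49). Without puberty replicate 2, which had the lowest ISL1, it was -0.89 (adjusted p = 0.42). ISL2 rose 1.42-fold (log2FC 0.51, SE 0.09, adjusted p = 0.016), and the difference between both genes was not tested. LMX1A, the roof plate gene of the class, had 11.4 to 18.0 CPM over all libraries and a log2FC of -0.07 (95% interval -0.54 to 0.39, adjusted p = 0.85). LMX1B was highest in puberty replicate 2, with 7.49 CPM against 2.45 to 5.24 CPM elsewhere, and its log2FC was 0.29 with that library and -0.25 without it (adjusted p from 0.45 to 0.94 in the fits without 1 library).

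The SINE class gave 3 tested genes and 0 calls by edgeR, with 0 at an unadjusted p under 0.05 (DESeq2 also called 0). With 11.5% of all tested genes called and 29% at that unadjusted p, a count of 0 among 3 genes says little. SIX3, which specifies the forebrain and eye field, also had its highest value in puberty replicate 2, 9.64 CPM against 3.29 and 4.36 CPM in the other puberty libraries and 4.81 to 8.62 CPM in prepuberty. Its log2FC was -0.19 (adjusted p = 0.80), or -0.77 without puberty replicate 2 (adjusted p of 0.18 or more in every fit without 1 library). SIX3, LMX1B and MSX2 share this library with the high choroid plexus marker sum, and the part of those markers in these values was not tested. SIX4 and SIX5 had log2FC values of -0.03 and -0.34 (adjusted p = 0.95 and 0.24). SIX4 and SIX6 lie 183 kb apart on chromosome 10 and SIX2 and SIX3 lie 56.9 kb apart on chromosome 11, yet SIX6 had 6 counts in all and SIX2 had 2.

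Among the POU genes, which pair a POU-specific domain with a homeodomain, POU3F3 was steady, at 21.8 to 24.4 CPM in all libraries (log2FC 0.04, 95% interval -0.20 to 0.27). POU2F1, the widely expressed octamer factor, had 13.7, 13.1 and 10.02 CPM in prepuberty and 9.33, 7.76 and 6.54 CPM in puberty. Its groups did not overlap and its log2FC was -0.64, but it did not pass with edgeR (SE 0.20, adjusted p = 0.065), while DESeq2 gave 0.031. POU2F2, the octamer factor of B cells, and POU3F2 had log2FC values of -0.20 and 0.30 (adjusted p = 0.67 and 0.41).

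In the CUT class SATB1 had 80.4, 73.4 and 74.3 CPM in prepuberty and 61.3, 73.0 and 54.7 CPM in puberty. The groups were separated by less than 1 CPM, and the log2FC of -0.27 did not pass (SE 0.11, adjusted p = 0.16). CUX1 had 104 to 125 CPM in all libraries (adjusted p = 0.85), and CUX2, a gene of upper layer cortical neurons, had 2.40 to 4.91 CPM (log2FC -0.48, adjusted p = 0.32). In the PRD class PRRX1, a mesenchymal gene, and OTX1, a relative of OTX2, had log2FC values of 0.05 and -0.01 (adjusted p = 0.95 and 0.99). OTX1 was at 6.80 FPKM, against 155 FPKM for OTX2.

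Of the 42 genes tested, 40 were at or above the 0.51 CPM that 10 counts give in all 6 libraries, MEIS2 and IRX3 being the others. No gene passed the filter through only 1 group. The 10 genes not tested had 0 to 56 counts over the 6 libraries together and at most 17 in any of them. NKX6-2, PRRX2 and POU4F1 had 56, 45 and 31 counts in total. LHX6, POU3F1, SIX6, DLX2, VAX1 and SIX2 had between 13 and 2. DLX1, a gene of forebrain interneurons that lies 11.4 kb from DLX2 on chromosome 2, had 0 counts in all libraries, which allows up to 0.025 CPM over the 6 together (3 counts; this covers counting error only). Differences between the stages were not detectable for these 10 genes at this depth. In the fit with no count filter, which among these leaves out only DLX1, the other 9 had adjusted p-values of 0.37 or more.

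Other homeobox genes, pinealocyte factors included, were read from a list of 166 names. Of the 153 with a row, 96 had a count and 51 were tested. ISL2 rose and HMBOX1 fell, which makes 2 of 51, or 3.92%, against 11.5% of all tested genes, and their median log2FC was 0.05. HMBOX1, a telomere-binding homeobox protein, had 17.4, 15.4 and 13.8 CPM in prepuberty and 8.74, 6.32 and 7.04 CPM in puberty. It fell 2.11-fold (log2FC -1.07, SE 0.18, adjusted p = 0.014), also with length offsets (adjusted p = 0.028). The clustered HOX genes, which pattern the body axis behind the forebrain, were low: 34 of the 38 with a row had 0 counts in all 6 libraries and the highest had 14 in total.

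Proteins that work with these factors were read from a list of 23 names, of which 20 were tested, 2 rose and 1 fell (15%, against 11.5% of all tested genes), with a median log2FC of 0.05. LMO1, a LIM-only protein that competes for the cofactor of LIM homeodomain proteins, had 23.9, 19.4 and 34.2 CPM in prepuberty and 65.2, 58.0 and 41.0 CPM in puberty. It rose 2.12-fold (log2FC 1.08, SE 0.24, adjusted p = 0.036), and with length offsets the adjusted p was 0.058. TLE3, a Groucho corepressor, rose 1.38-fold (log2FC 0.46, adjusted p = 0.032). DACH1, a corepressor that works with EYA proteins, fell 1.603-fold (log2FC -0.68, adjusted p = 0.043, or 0.069 with length offsets).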

How the data were processed

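The authors' deposited table gives raw counts of reads for each gene and library, and a second deposited table of the authors gives FPKM values. Dividing each count by its gene's length and a constant of the library returned the FPKM (largest relative deviation 5.11e-15). Per the submitters' processing notes, which assign no roles, the tools included DESeq2 1.20.0 as well as featureCounts 1.5.0-p3 and HISAT2 2.0.5, and the builds named are the human GRCh38 and hg38, although the identifiers are goat Ensembl identifiers. How strand was handled in counting is not stated. RefSeq's goat assembly ARS1.2 held 51 of the 52 symbols, all 51 at overlapping positions.

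Genes that passed filterByExpr (minimum count 10; at least 99.9% of each library's counts) were TMM-scaled and tested with edgeR 4.0.16 (robust quasi-likelihood F test, R 4.3.3). Adjusted p-values are Benjamini-Hochberg values over all genes tested, from edgeR unless DESeq2 1.42.0 or limma 3.58.1 is named. No library duplicated another of its group (chi-square per gene 17.4 to 38.8). The p-values reflect variation among these 6 libraries, which could be technical in part. Full values are given for SHOX2, for genes called and for those with an absolute log2FC of at least 1. The genes and lists were chosen with earlier results of these data known. Alternatives were RLE scaling, no filter, a filter of 1 CPM in 3 libraries, DESeq2, limma-voom, offsets for length (lowess, span 0.3), a replicate block, a threshold of 0.1, limma on log2 FPKM with 1 or 0.1 added, and leaving out each library.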

Additional observations from a re-analysis of the deposited data

How the results depend on the processing

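Over all tested genes, 971 were higher and 935 lower. These counts were 1628 and 1617 at an adjusted p under 0.1, and 475 and 455 with length offsets. The counts were 1425 and 1355 with DESeq2, and 1002 and 950 with no count filter. With limma on log2 FPKM they were 844 and 634 (1 added), and 857 and 653 (0.1 added). Without 1 library they ranged from 0 to 729 higher and from 0 to 540 lower, with 0 in either direction without prepuberty replicate 1 (edgeR, 3924 genes at an unadjusted p under 0.05). Of the homeobox genes, 2 were higher and 4 lower. The higher count was 1 with no count filter and 1 with length offsets, and 0 to 1 without 1 library. The lower count was 8 at an adjusted p under 0.1, 8 with DESeq2, 1 with length offsets, 1 each with limma on log2 FPKM with 1 or 0.1 added, and 0 to 2 without 1 library. ZFHX2 was the lower gene called in 5 of the 6 fits without 1 library. In every alternative run, the 6 called homeobox genes kept their direction. The median of the tested homeobox genes was -0.02, and ran from -0.10 without puberty replicate 2 to 0.016 without puberty replicate 1. SHOX2 lost its call with no count filter (log2FC 1.73, adjusted p = 0.091), with length offsets (1.796, adjusted p = 0.054) and without any 1 library (1.41 to 2.03). MEIS2, at -1.87, ran from -2.35 without prepuberty replicate 1 to 0.16 without prepuberty replicate 2, the library that held most of its counts.

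The replicate numbers do not pair the libraries by the labels, and same-numbered libraries did not deviate together (correlations of 0.05, -0.10 and -0.10 across genes), nor did every library correlate best with its own number. With a replicate block 366 genes were higher and 354 lower, and of the homeobox genes 1 was higher (SHOX2) and 1 lower (ZFHX2).

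Precision is limited by 3 libraries per group. Of the 10 genes that failed the count filter, 9 could be fitted with no filter, with adjusted p-values of 0.37 or more, and the cause of the lost calls was not tested.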
